A study of Mus musculus with 4 samples.

Results

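Inner ear organoids grown from mouse embryonic stem cells held a rare population of cells whose droplets carried messenger RNA of both Coch and Crabp1. The members were chosen from the counts themselves. A barcode belonged to the population if it had at least 500 detected genes, at most 10% mitochondrially encoded molecules, at least 2 molecules of Coch and at least 2 of Crabp1. A molecule here is a unique molecular identifier (UMI), a tag that lets copies of 1 captured transcript be counted once. The rule found 65 cells among 35853 kept barcodes in 4 libraries. Since Coch and Crabp1 chose the cells, their levels in the cells are a description and support nothing.

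The study compared wild-type organoids (WT, line R1/E, derived strain 129X1x129S1) with organoids of the edited line R1/E-Tmprss3KO-GFPKI (KO), in which Tmprss3 was knocked out and GFP knocked in. Tmprss3 encodes a membrane serine protease needed by hair cells, and the study's title concerns hair cell degeneration. Each genotype was sampled once at day 25 and once at day 35 of culture, by droplet-based 3' RNA sequencing of dissociated organoids. With 1 library per group and 1 edited line, a difference between groups cannot be told apart from one between libraries, and no test between groups was run.

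Coch encodes cochlin, an abundant secreted protein of the inner ear matrix that is made chiefly by fibrocytes of the spiral ligament and limbus. Crabp1 encodes a cytosolic protein that binds retinoic acid and is a common mark of embryonic mesenchyme. Periotic mesenchyme surrounds the otic epithelium in the embryo, forms the bony capsule and the fibrocytes, and secretes fibrillar collagens with small proteoglycans such as decorin and lumican.

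The libraries of WT day 25, KO day 25, WT day 35 and KO day 35 gave 9768, 11190, 8166 and 6729 kept barcodes, with median depths of 6166.5, 6371, 3089 and 4420 UMIs. Tmprss3 itself had 18, 7, 8 and 5 UMIs in those libraries, too few to check the labels, and 3' counts need not lie in the edited stretch. No UMI of Tmprss3 fell in the 65 cells. Pairs of libraries shared between 76 and 142 barcode sequences. No member's barcode was a member in another library, and 2 members' barcodes occurred in another library as other cells.

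The cells were found mostly in WT day 25 organoids. There were 45 members in WT day 25 (0.461% of kept barcodes), 12 in KO day 25 (0.107%), 8 in WT day 35 (0.0980%) and 0 of 6729 in KO day 35, which allows a share of up to 0.0446%. The exact (Clopper-Pearson) 95% intervals, which cover counting error only, ran from 0.336% to 0.616%, from 0.0554% to 0.187% and from 0.0423% to 0.193% in the first 3 libraries. The share in KO day 25 was 0.233 times that in WT day 25 (95% interval 0.112 to 0.447). The share in WT day 35 was 0.213 times that in WT day 25 (0.0866 to 0.456). Both ratios use the same WT day 25 library. At day 35 the ratio of KO to WT had an upper bound of 0.711, and no lower bound above 0.

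Depth differed between libraries, so each cell was also thinned to 2000 UMIs. Thinning left 18, 4, 4 and 0 members, or 0.184%, 0.0357%, 0.0536% and 0% of cells, after 707 shallower WT day 35 cells were left out. The ratio of KO to WT at day 25 was then 0.194 (0.0478 to 0.589), and that of day 35 to day 25 in WT was 0.291 (0.0716 to 0.883). The order of WT day 25 above the others was therefore also seen at equal depth, whereas KO day 25 and WT day 35 could not be ordered. The upper bound of KO over WT at day 35 was 1.68 after thinning, so at equal depth that pair could not be ordered either.

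**Figure D1:**
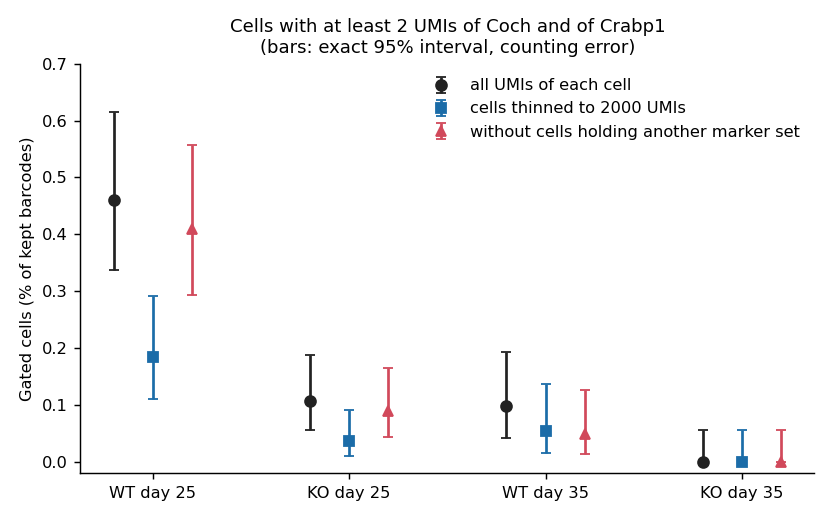
Share of kept barcodes in the Coch and Crabp1 population (percent, y axis) in each of the 4 libraries, with exact 95% intervals for counting error, at full depth, after thinning to 2000 UMIs per cell, and without cells that also hold another cell type's marker set. WT day 25 is highest in each of the 3 versions, and KO day 35 has no member.

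The scarce gene was Coch, not Crabp1. Cells with at least 2 UMIs of Crabp1 numbered 1713, 2001, 900 and 523, and those with at least 2 UMIs of Coch numbered 99, 21, 42 and 6, in the order given above. Summed over all kept cells, Coch stood at 11.3, 2.43, 7.16 and 0.888 CPM (the gene's UMIs over all UMIs of the cells summed, per 1000000 UMIs), and Crabp1 at 171, 162, 161 and 67.6 CPM. At least 2 UMIs of Crabp1 were present in 45.5%, 57.1%, 19% and 0% of the Coch cells, against 17.3%, 17.8%, 11% and 7.78% of all other cells. The gap was widest in the day 25 libraries, and in WT day 35 it rested on 8 of 42 Coch cells.

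Shares in cells of other types give a background for these shares. Among 584 cells with Krt5 and Krt14, keratins of basal epidermis, none was a member, which allows up to 0.514%, a limit above the shares themselves. Of these keratin cells 0 had 2 UMIs of Coch and 23 (3.94%) had 2 UMIs of Crabp1. Among 4228 cells with Myog, the myogenic regulator myogenin, 3 (0.0710%) were members, and 2 of these 3 were among the highest doublet scores. Free RNA and droplets with 2 cells cannot be told apart in this share. The Myog cells were deeper than the population at day 25, at median depths of 9045, 8266, 4122.5 and 5917 UMIs against 4760, 5759.5 and 4476 in the 3 libraries with members. The WT day 25 share stood above the share in Myog cells pooled over the 4 libraries. The intervals of KO day 25 and WT day 35 include that pooled share. By library, 1 Myog cell each was a member in WT day 25 (0.0714%), KO day 25 (0.0536%) and WT day 35 (0.142%). The KO day 25 value lies just under the lower bound of that library's share, 0.0554%, but rests on 1 cell. The shares of KO day 25 and WT day 35 therefore cannot be separated from background.

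Many members lay at the threshold. Of the 65 cells, 18 had exactly 2 UMIs of Coch and 8 exactly 2 of Crabp1, while 75 cells just outside had 1 UMI of Coch and 18 had 1 of Crabp1. The median count of Coch per member was 4 in WT day 25, 4.5 in KO day 25 and 2.5 in WT day 35, with highest counts of 27, 40 and 9. For Crabp1 the medians were 8, 15 and 4 and the highest counts 38, 37 and 16.

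The name mesenchyme-like was checked against marker sets. All 10 mesenchyme markers had UMIs in the population, and 64 of 65 cells held at least 10 UMIs of the set, with a median of 57. Summed, the set stood at 12243, 14282 and 12812 CPM in WT day 25, KO day 25 and WT day 35. Cells with Crabp1 but no Coch, called Crabp1-only cells here, had 12091, 16465 and 12084 CPM, and cells with Coch but no Crabp1, called Coch-only cells, had 7958, 7404 and 4753 CPM. By this set the members resembled the Crabp1-only cells in level, and both were chosen by Crabp1.

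Among single mesenchymal genes, Col1a1 and Col1a2, the chains of type I collagen, stood at 3384 and 2851 CPM in WT day 25, 3635 and 3389 in KO day 25, and 1388 and 2747 in WT day 35. Col3a1, the chain of type III collagen, stood at 2662, 3622 and 2429 CPM. These collagens were found in nearly every cell, Col1a1 in 45 of 45, 12 of 12 and 6 of 8. Of the mesenchymal transcription factors, Prrx1 had 71 UMIs in 37 cells, Prrx2 41 in 22, Twist1 23 in 20 and Tbx15 21 in 18. Prrx2 and Tbx15 also belong to the periotic mesenchyme set. Also in that set, Pou3f4 and Tbx18 had 3 UMIs in 2 cells and 6 in 5 cells, and Tcf21 had 0. The periotic set had UMIs in 36 of 65 members. Without the highest member of each library it stood at 201, 194 and 260 CPM, against 198, 161 and 144 CPM in Crabp1-only cells.

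Marker sets of other cell types ranged widely. None of 5 immune markers had a UMI, the hair cell set had 8 UMIs in 8 cells with 4 of its 8 genes at 0, the endothelial set had 3 UMIs and the pluripotency set 1. Skeletal muscle markers had 294 UMIs in 48 of 65 cells, astrocyte markers 124 in 37, mural markers 114 in 19 and adipocyte markers 77 in 28. The mural set reached 10 UMIs in 5 cells, and it was not among the 16 sets used next. Cycling genes had 45 UMIs in 12 of the 65 cells. Yet 11 of the 65 cells also held at least 10 UMIs of 1 or more of 16 sets of other cell types, namely 5 of 45 in WT day 25, 2 of 12 in KO day 25 and 4 of 8 in WT day 35. Of these 11 cells, 5 were also among the barcodes of highest doublet score. Skeletal muscle genes accounted for 4 of the 11 cells.

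A few cells held most of what the population had of the inner ear sets. All but 1 of the UMIs of Otor, which encodes the secreted protein otoraplin, came from 1 WT day 25 cell with 80. All 591 UMIs of Otos, which encodes otospiralin of cochlear fibrocytes, came from 1 WT day 35 cell, which also held 305 UMIs of the meningeal set. Without that cell the cochlear fibrocyte set in WT day 35 went from 18133 to 347 CPM, against 112 and 77.6 CPM in the day 25 members of WT and KO. The Coch-only cells had 967, 688 and 34460 CPM of the cochlear fibrocyte set, and 5307, 4609 and 2201 CPM of the periotic set, against 506, 246 and 405 CPM in the members. The members therefore did not carry the Otor and fibrocyte sets at the levels of other Coch cells. The share of members without the 11 mixed cells was 40, 10, 4 and 0 cells by library, and the ratios to WT day 25 were 0.218 (0.0973 to 0.444) for KO day 25 and 0.120 (0.0311 to 0.331) for WT day 35.

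**Figure D2:**
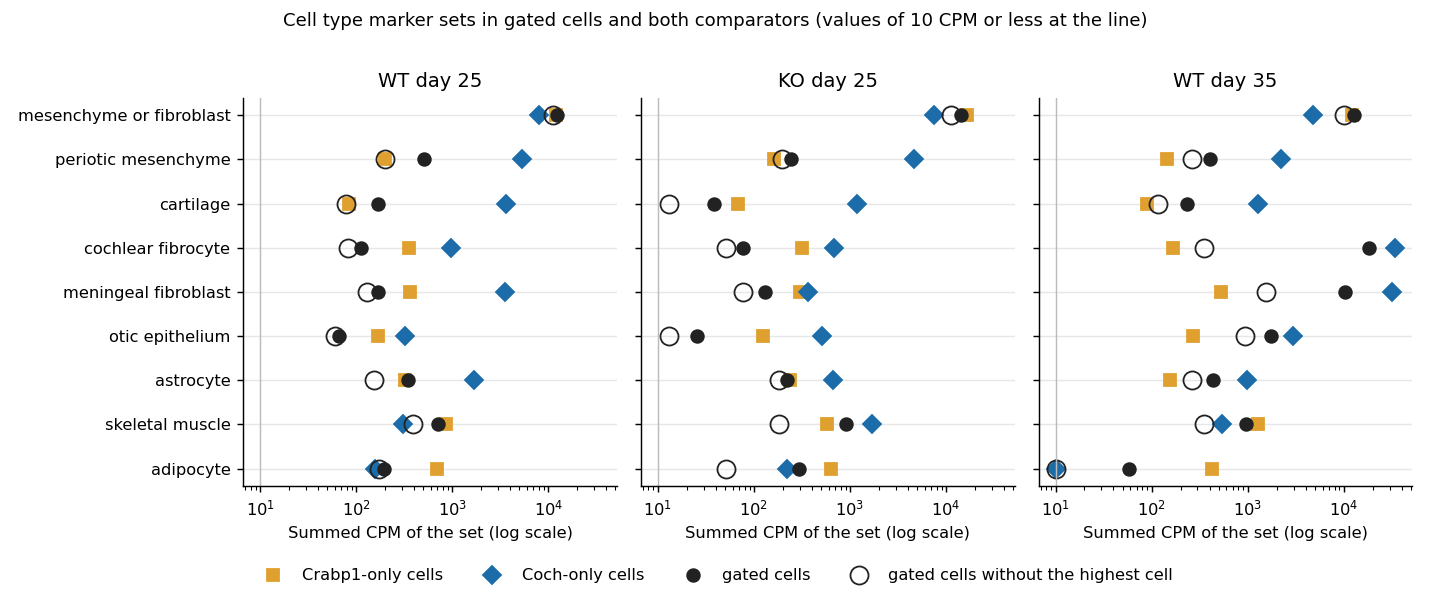
Summed level of 9 marker sets (CPM, log axis, values of 10 or less drawn at the lower line) in the members, in the members without the highest cell, in Coch-only and in Crabp1-only cells, for the 3 libraries that have members. The mesenchyme set is high in all 4 kinds of point, while the cochlear fibrocyte set of WT day 35 falls from 18133 to 347 CPM without 1 cell.

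To describe what else the members carried, their summed counts were compared with those of 2 kinds of other cell from the same libraries. Both comparisons used edgeR's quasi-likelihood test with the library as a block, over WT day 25, KO day 25 and WT day 35, with p-values adjusted by the Benjamini-Hochberg method over all genes tested. Coch and Crabp1 were left out. The spread is that between 3 libraries of different genotype and day, summed over as few as 8 members, and the members of a library share its preparation.

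Against the 1625, 1966 and 883 Crabp1-only cells, 42 of 9474 genes were higher in the members (0.443% of those tested) and 38 were lower (0.401%). Fcgr2b, an inhibitory receptor for IgG better known from immune cells, was highest in fold. It stood at 101, 129 and 57.8 CPM in the members of WT day 25, KO day 25 and WT day 35 and at 5.81, 3.12 and 10.5 CPM in Crabp1-only cells, in 12, 3 and 2 members. The members were higher in each of the 3 libraries, with a log2 fold change of 4.03 (SE 0.46, edgeR adjusted p = 4.61e-15). All 5 immune markers were at 0 in the same cells. Ndnf, a secreted protein first described as a neurotrophic factor, stood at 112, 194 and 57.8 CPM against 17.7, 15.1 and 10.8 CPM, a log2 fold change of 2.86 (SE 0.39, edgeR adjusted p = 4.53e-10). Both genes passed the test in every alternative that was run.

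The other genes highest in fold against Crabp1-only cells were of several kinds. Col23a1, a transmembrane collagen, rose by 2.58 on the log2 scale (SE 0.41), Megf6, a protein with EGF-like repeats, by 2.45, and Pde4d, a cAMP phosphodiesterase, by 2.28. Nt5e, the ecto-enzyme CD73 that makes adenosine, rose by 1.97 and Ifitm1, an interferon-induced membrane protein, by 1.84. Ifitm1 was the most abundant of the group, at 640, 608 and 289 CPM against 158, 82.0 and 150 CPM. Grem1, an antagonist of BMP, and Wif1, an inhibitor of Wnt ligands, rose by 1.86 and 1.82, and Tspan17, a tetraspanin, by 1.84. Without each gene's highest member per library, Wif1 stood at 1.05, Grem1 at 1.40 and Tspan17 at 1.91, and none of the 3 was called (edgeR adjusted p = 0.625, 0.447 and 0.170). These UMIs were taken from the members only, so the setting checks genes that were higher there, not those that were lower. It gave 21 higher and 39 lower genes.

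Twist2, a transcription factor of dermal and craniofacial mesenchyme, was found in the day 25 members. It stood at 354 CPM in WT day 25 (31 of 45 cells), at 401 CPM in KO day 25 (9 of 12) and had 0 UMIs in the 8 cells of WT day 35, which allows up to 86.8 CPM. Crabp1-only cells had 60.0, 52.4 and 43.3 CPM. The log2 fold change of members over Crabp1-only cells was 2.15 (SE 0.36, edgeR adjusted p = 1.55e-06), and the call was lost without WT day 25, without KO day 25 and under DESeq2. It was the 1 gene called among 24 tested mesenchymal transcription factors.

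The gene lists gave few calls in this comparison, in which 0.443% of all genes rose and 0.401% fell. Of 26 tested genes of the BMP and TGF beta pathway, 3 rose, and all 3 are secreted. They were Fst, whose product follistatin binds activins, by 1.62 on the log2 scale, the ligand Bmp3 by 2.88, and Grem1. Of 15 genes that handle retinoic acid, Cyp26b1, an enzyme that breaks it down, rose by 1.40 (edgeR adjusted p = 0.0414), the receptor gene Rxrg by 2.08, and Rbp4, a retinol carrier, fell by 1.59. Without each gene's highest members Fst was still called, while Bmp3 (edgeR adjusted p = 0.0871), Grem1, Cyp26b1 (0.170) and Rxrg (0.0503) were not. Rbp4 was also still called, but for a gene lower in the members this setting is no check. None of the 10 mesenchyme markers was called, with Dcn at -0.07 and Lum at 0.81. Of 16 collagens 2 were called, Col9a1 and Col9a3, which had UMIs in 4 and 2 members in all.

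Some secreted proteins of inflammation were lower than in Crabp1-only cells. Of 18 tested acute phase, complement and chemokine genes 5 fell, where 0.401% of all genes did, and 1 rose, with a list median of -0.99 on the log2 scale against -0.19 for all 9474 genes. The 5 were the chemokines Ccl7 (-2.21) and Cxcl1 (-1.56), the serum amyloid gene Saa3 (-1.61), and C3 (-1.72) and Serping1 (-1.46) of the complement system, and the 1 that rose was Hp, which encodes haptoglobin, found in 6, 0 and 1 cells. The zinc-binding metallothioneins Mt1 and Mt2 fell, to -1.56 and -1.95, 2 of the 3 tested. Among the genes of largest fold, Mmp3, a matrix protease, stood at -4.26, Ptx3, a soluble pattern receptor, at -3.86, Chil1, a chitinase-like protein, at -3.31, and Thbs1, a matrix glycoprotein, at -3.17. Apoc1, an apolipoprotein, and Plac8 stood at -5.49 and -3.98, with 1 and 2 UMIs in all members of WT day 25 and none elsewhere. Gm6619 stood at -4.94, Lgals7 at -2.50, AW112010 at -2.38 and the antimicrobial lectin gene Reg3g at -2.37. Under DESeq2 only Apoc1, Mmp3 and Ptx3 of these 10 genes of largest fold were called (adjusted p = 0.0153, 0.00522 and 0.0168). Without each gene's highest members Lgals7 and AW112010 were not called (edgeR adjusted p = 0.102 and 0.0707).

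The number of calls rested on single libraries. Without WT day 25 there were 6 higher and 18 lower genes, without KO day 25 10 and 4, and without WT day 35 69 and 83. Of the 80 calls 15, 12 and 70 were kept in those 3 fits. Members were shallower than Crabp1-only cells at day 25 (medians of 4760 against 6244 UMIs in WT and 5759.5 against 6741.5 in KO) and deeper in WT day 35 (4476 against 3465), and the part of depth in the calls was not tested.

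Against the 41, 7 and 31 Coch-only cells, fewer genes could be tested and more of them were called. Of 1230 genes, 32 were higher in the members (2.6% of those tested) and 41 lower (3.33%), and each call went in 1 direction in all 3 libraries. The mesenchyme markers were higher as a group, with 5 of 7 tested called (Lum, Postn, Dcn, Col1a1 and Col3a1) and a median of 1.30 on the log2 scale against -0.01 for all genes. Coch-only cells were chosen to lack Crabp1, a mark of mesenchyme, so the choice itself can lower such genes in them. The part of that choice in the gap was not tested. Lum, the small proteoglycan lumican, stood at 893, 1074 and 3268 CPM against 218, 102 and 955 CPM, a log2 fold change of 2.17 (SE 0.30, edgeR adjusted p = 0.00589). Dcn, decorin, stood at 1467, 1294 and 2314 CPM against 639, 322 and 292 CPM, a log2 fold change of 1.95 (SE 0.33, edgeR adjusted p = 0.0116). Every library had more of both in the members.

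Fst had the largest fold among the named genes that were higher. It stood at 257, 375 and 116 CPM in the members and at 18.8, 0 and 0 CPM in Coch-only cells, with a log2 fold change of 4.33 (SE 0.52, edgeR adjusted p = 0.00274). The call held in the alternatives in which Fst was tested, and Fst was not tested without WT day 25 or without the highest doublet scores. Nrn1, a membrane-anchored neuritin, rose by 3.63, Igf1, the secreted growth factor, by 3.36, and Mgst3, a microsomal glutathione transferase, by 2.94. Cd34, a sialomucin of fibroblast and vascular progenitors, rose by 2.67, the imprinted gene Dlk1 by 2.11, P4ha2, a collagen prolyl hydroxylase, by 1.94 and Col5a1 by 1.86. Thy1, a surface marker of fibroblasts, rose by 1.5.

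Collagens divided by kind in the edgeR fit. Of 13 tested, 5 rose (Col1a1, Col3a1, Col5a1, Col6a1 and Col6a2), which are chains of soft connective tissue, and 5 fell (Col2a1, Col9a1, Col9a2, Col9a3 and Col11a2), which are chains of cartilage-type fibrils, against 2.6% and 3.33% of all genes. Col2a1 stood at 26.1, 25.9 and 0 CPM in the members and at 1467, 585 and 370 CPM in Coch-only cells, a log2 fold change of -5.53 (SE 0.41, edgeR adjusted p = 0.000432). Col9a2 had 0 UMIs in the members and 133 in Coch-only cells, at least 38.6-fold lower with 3 UMIs over all members as the floor. Col1a2 differed little between the 2 kinds of cell, at 0.10 (edgeR adjusted p = 0.863). Under DESeq2 Col5a1, Col6a1, Col6a2 and Col9a2 were not called (adjusted p = 0.0708, 0.0549, 0.183 and 0.0796). The edgeR call of Col5a1 was also lost without WT day 25 and without KO day 25.

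Otor was among the genes that fell. It stood at 298, 0 and 28.9 CPM, all from 2 cells, against 4641, 3936 and 1607 CPM, a log2 fold change of -4.87 (edgeR adjusted p = 0.00274). Ptn, the secreted growth factor pleiotrophin, stood at 923, 621 and 2024 CPM against 10403, 7916 and 12633 CPM, a log2 fold change of -3.29 (SE 0.21, edgeR adjusted p = 0.000215). The call of Ptn was kept in every alternative run. Gjb2, the gap junction protein connexin 26, stood at -2.6. S100b, a calcium-binding protein, stood at -4.41, Srgn, a granule proteoglycan, at -5.17, the noncoding RNA Pantr1 at -3.96 and Pcca, a mitochondrial carboxylase subunit, at -3.68.

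Of 11 mitochondrially encoded genes tested against Coch-only cells, 4 fell (mt-Nd4 at -0.95, mt-Atp6 at -0.80, mt-Cytb at -0.75 and mt-Co3 at -0.69) and none rose, against 3.33% of all genes that fell. All 4 calls were lost without each gene's highest members (edgeR adjusted p from 0.0529 to 0.181) and under DESeq2 (adjusted p from 0.150 to 0.398). The median mitochondrial share per cell was 2.23%, 1.84% and 5.13% in the members and 4.65%, 2.92% and 5.81% in Coch-only cells. Wif1 went the opposite way from the comparison above, at -1.7. Without WT day 25, KO day 25 or WT day 35 in turn, the counts of higher and lower genes were 9 and 23, 17 and 33, and 125 and 94, and 26, 35 and 72 of the 73 calls were kept. KO day 25 had only 7 Coch-only cells.

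**Figure D3:**
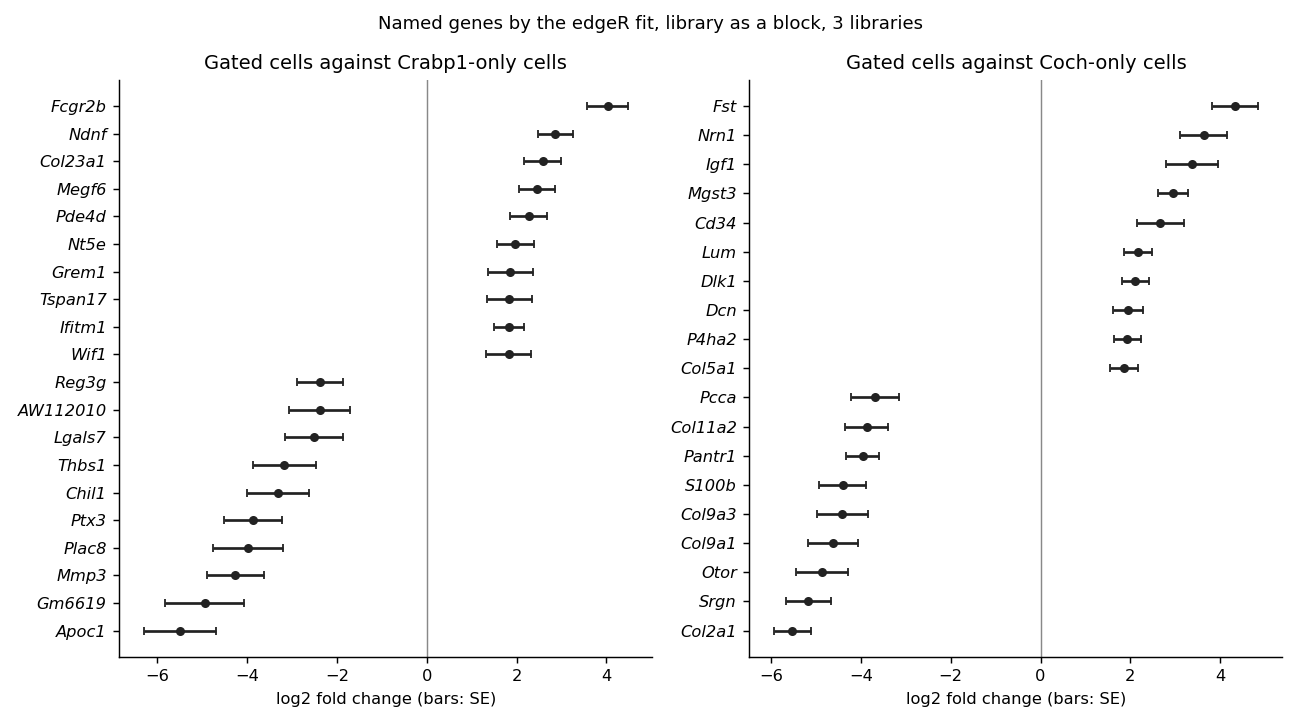
Log2 fold change (x axis, with standard error) of the 10 genes of largest fold each way, in the members against Crabp1-only cells (left) and against Coch-only cells (right), from edgeR over 3 libraries. Fcgr2b at 4.03 and Fst at 4.33 head the 2 panels. Col9a2, with 0 UMIs in the members, is not drawn.

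At day 25 the 12 KO members could be set beside the 45 WT members only as 2 libraries. For each gene with at least 50 UMIs the ratio of CPM was given a 95% interval from counting error, and a gene was taken as different when the ratio was at least 2-fold and the interval left out 0 on the log2 scale. Of 770 genes, 15 were higher in KO (1.95%) and 36 lower (4.68%). Since 1 cell can carry a gene, each gene was taken again without its highest cell in the library where its level was higher. The library's total was left as it was, so this can only shrink or reverse a ratio. It left 3 higher and 19 lower. The check is uneven, since it takes 1 of 12 cells from genes higher in KO and 1 of 45 from genes lower. All values given without the highest cells in ratios between libraries were made in this way. The scaling mattered as well. With TMM factors the median of all genes moved from -0.10 to -0.31 on the log2 scale, and the counts were 7 higher and 66 lower, so that 9.59% of calls were higher in place of 29.4%.

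Imprinted growth genes headed both directions, H19 among the genes higher in KO and Cdkn1c among those lower. H19, a noncoding RNA expressed from the maternal allele, had UMIs in 24 of 45 WT members and in 12 of 12 KO members, with medians of 1 and 14.5 per cell and highest counts of 30 and 68. Its level was 700 CPM in WT and 3635 CPM in KO, a log2 ratio of 2.38 (95% interval 2.11 to 2.65), and 1.98 without the highest cells. Igf2, its neighbour that is expressed from the paternal allele, stood at 923 CPM in WT and 220 CPM in KO, a log2 ratio of -2.07 (-2.87 to -1.36). It was found in 37 of 45 WT and 4 of 12 KO members. Cdkn1c, a maternally expressed inhibitor of the cell cycle, had 100 UMIs in 22 of 45 WT members and 0 in KO, at least 9.59-fold lower with 3 UMIs per library as the floor. Its highest counts were 23, 23 and 19 UMIs in single WT cells. A cell with 23 and the cell with 19 were among the highest doublet scores. All 3 genes lie on chromosome 7 of GRCm38, H19 at 142575529 to 142578143, Igf2 at 142650766 to 142666816 and Cdkn1c at 143458339 to 143461050, each on the minus strand.

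The same 3 genes went the same way in Crabp1-only cells. H19 stood there at 1157 CPM in WT and 4477 CPM in KO, Igf2 at 1200 and 293 CPM and Cdkn1c at 593 and 42.1 CPM. Whether the ratios differed between the 2 kinds of cell was not tested. Of 13 imprinted genes with at least 20 UMIs, 4 were past 2-fold higher and 2 past 2-fold lower, where 2.13% and 3.8% of all 2160 such genes were. Peg3 and Mest, both paternally expressed, stood at 153 and 417 CPM in WT and at 401 and 983 CPM in KO, log2 ratios of 1.39 and 1.24. Both were under 2-fold without the highest cells, at 0.96 and 0.60. Dlk1 stood at 0.10, with 71 of 107 KO UMIs in 1 cell.

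Tmsb10, an actin monomer-binding thymosin found in every member, stood at 2881 CPM in WT and 1113 CPM in KO, a log2 ratio of -1.37 (-1.71 to -1.05). Its median was 14 UMIs per WT cell and 5.5 per KO cell. Crabp1-only cells had 3186 and 1927 CPM. Its relative Tmsb4x stood at -0.28 (-0.69 to 0.11).

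Secreted inflammatory proteins were lower in the KO members by count. Of 13 acute phase, complement and chemokine genes with at least 20 UMIs, 11 were lower and 4 of them past 2-fold, where 3.8% of all 2160 such genes were, with a median of -1.01 against -0.10 for all genes. Without the highest cells 12 of 13 were lower, by the uneven check above. With TMM scaling, which lowers every ratio alike, 12 of 13 were lower, with a median of -1.22 against -0.31 for all genes. Lcn2, the iron-scavenging lipocalin, stood at 666 CPM in 18 WT cells and 51.7 CPM in 3 KO cells, a log2 ratio of -3.69 (-5.58 to -2.30), and at -3.09 without the highest cells. Crabp1-only cells had 560 and 256 CPM. Hp had 64 UMIs in 6 WT cells and 0 in KO, at least 6.14-fold lower, with 29 and 25 of the UMIs in 2 cells. As a log2 bound this was -2.62, and -1.75 without the highest cell. Single cells weighed heavily here. Saa3 stood at -1.29, but at -0.25 without the highest cells, and Ccl2 at -2.57, but at -0.43, since 48 of its 62 WT UMIs lay in 1 cell. Apod, a lipid-binding secreted protein, stood at 305 CPM in WT and 25.9 CPM in KO, a log2 ratio of -3.56 (-6.63 to -1.66), and -2.90 without the highest cells.

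Genes of acute stress were mixed between the 2 libraries. Dnajb1, a heat shock cochaperone, stood at 220 CPM in WT and 776 CPM in KO (log2 ratio 1.82, 1.28 to 2.36) and Nr4a1, an immediate early nuclear receptor, at 279 and 802 CPM (1.52, 1.01 to 2.03). Fos stood at 1.04 and Jun at -1.13, opposite in sign. Fos and Jun were both under 2-fold without the highest cells, at 0.69 and -0.75. Myog, at 2.68, owed 46 of its 48 KO UMIs to 1 cell and stood at -1.90 without the highest cells. Otor had 80 WT UMIs, all in 1 cell.

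For several matrix and marker genes the interval between genotypes at day 25 included 0. Twist2 stood at 0.18 (-0.45 to 0.78), Col1a1 at 0.10 (-0.09 to 0.30), Dcn at -0.18 (-0.51 to 0.14) and Lum at 0.27 (-0.11 to 0.63). Fcgr2b stood at 0.36 (-0.85 to 1.46), too few counts for a narrower interval.

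**Figure D4:**
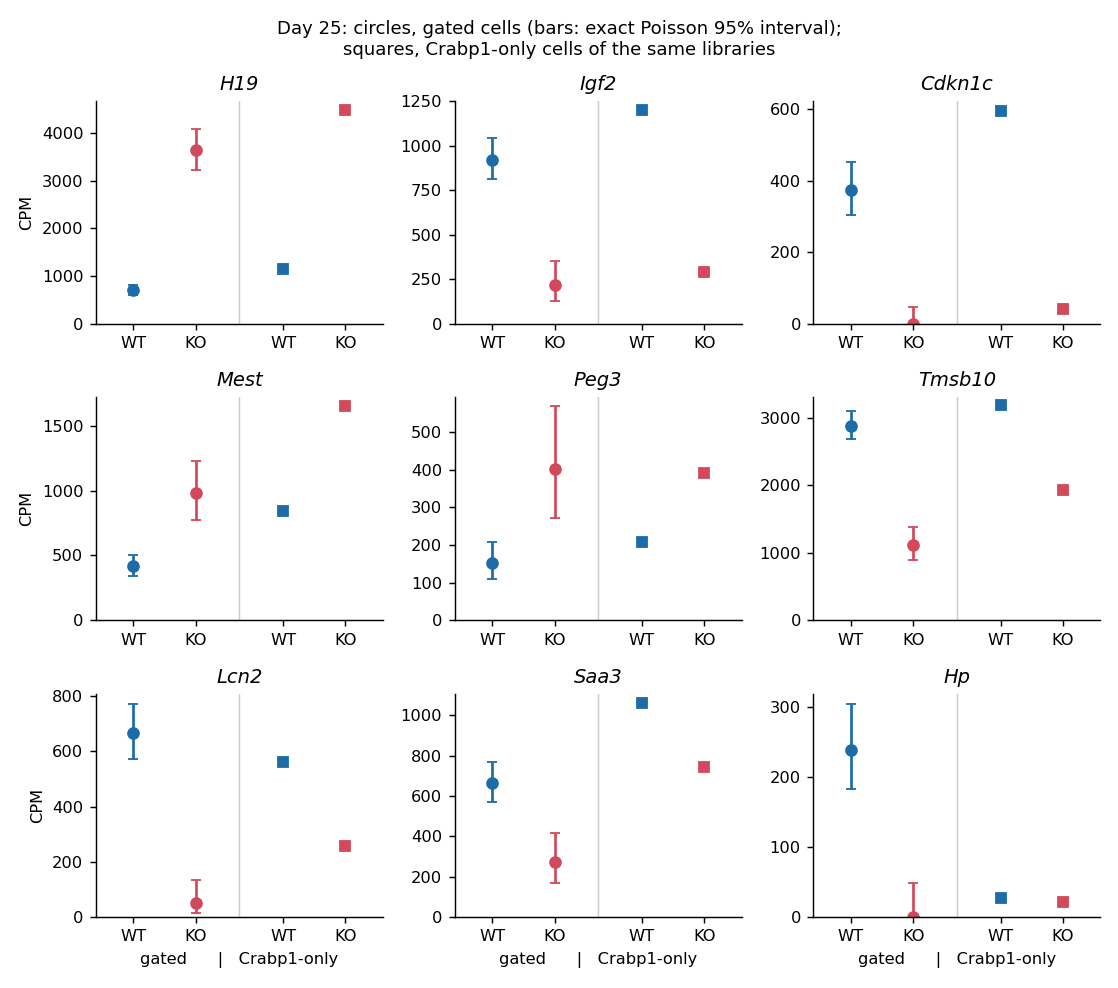
Level of 9 genes (CPM, linear axis) at day 25 in WT and KO, in the members (with 95% Poisson intervals) and in Crabp1-only cells (without intervals). H19 is higher in KO (3635 against 700 CPM in the members) and Igf2, Cdkn1c and Tmsb10 are lower, in both kinds of cell.

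The last contrast, day 35 over day 25 in WT, rests on 8 members at day 35, of which 4 hold another marker set, and it shares the WT day 25 cells with the contrast above. Of 657 genes, 67 were higher at day 35 (10.2%) and 70 lower (10.7%). Without each gene's highest cell in the library where its level was higher there were 18 and 51. This took 1 of 8 cells from genes higher at day 35 and 1 of 45 from genes lower. It therefore weighed more on the higher genes. With TMM factors the median of all genes moved from -0.08 to -0.63 and the counts were 23 and 170, so that 11.9% of calls were higher in place of 48.9%. Without the 4 mixed cells too few were left to compare.

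The genes that were higher at day 35 came largely from single cells. Otos had 591 UMIs in 1 cell, Ptgds, the prostaglandin D synthase of meninges and fibrocytes, had 304 of 347 UMIs in 1 cell, and 1500015O10Rik had 73 of 79 in 1 cell. Without the highest cells Ptgds went from 7.59 to 4.58 on the log2 scale and 1500015O10Rik stood at 0.15. S100a1, a calcium-binding protein, was broader, with 63 UMIs in 6 of 8 cells at 1822 CPM against 63.3 CPM at day 25, and stood at 4.85, or 3.57 without the highest cells. Mia, a secreted cartilage protein related to Otor, stood at 6.25 with UMIs in 3 of 8 cells. Lum was in all 8 cells, at 3268 CPM against 893 CPM, a log2 ratio of 1.87 (1.54 to 2.20), and stood at 1.41 without the highest cells. Metallothionein Mt2 stood at 2.81, and at 1.17 without them.

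Twist2 headed the genes that were lower at day 35. It had 95 UMIs in 31 of 45 cells at day 25 and 0 in 8 cells at day 35, at least 4.08-fold lower. In cells thinned to 2000 UMIs it was seen in 13 of 45 and in 0 of 7 cells. Dlk1 and Meg3, neighbours in 1 imprinted cluster, stood at -2.68 (-4.00 to -1.62) and -2.11 (-2.77 to -1.51), and Tuba1a, an alpha-tubulin of growing cells, at -3.09. Actc1, cardiac actin, had 53 of 81 day 25 UMIs in 1 cell and none at day 35.

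By list, 11 of 13 imprinted genes were lower at day 35, 7 of them past 2-fold. Their median was -1.05 against -0.08 for all genes. With TMM scaling, which lowers every ratio alike, 13 of 13 were lower, with a median of -1.60 against -0.63 for all genes. Igf2 stood at -1.83 and Mest at -1.85. H19 stood at -0.69 (-1.56 to 0.07). Of 10 collagens 9 were lower, 4 past 2-fold. With TMM scaling 10 of 10 were lower, with a median of -1.37 against -0.63 for all genes. Col1a1 stood at -1.29 (-1.74 to -0.87) while Col1a2 stood at -0.05 (-0.38 to 0.26) and Col3a1 at -0.13. All 11 mitochondrially encoded genes were higher, 5 past 2-fold, and 9 of 11 with TMM scaling. Past 2-fold, 6.85% of all 1913 genes with at least 20 UMIs were higher and 3.82% lower. The mitochondrial share of all kept cells moved the same way, with medians of 2.69% at day 25 and 4.81% at day 35, and its part in these values was not tested.

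**Figure D5:**
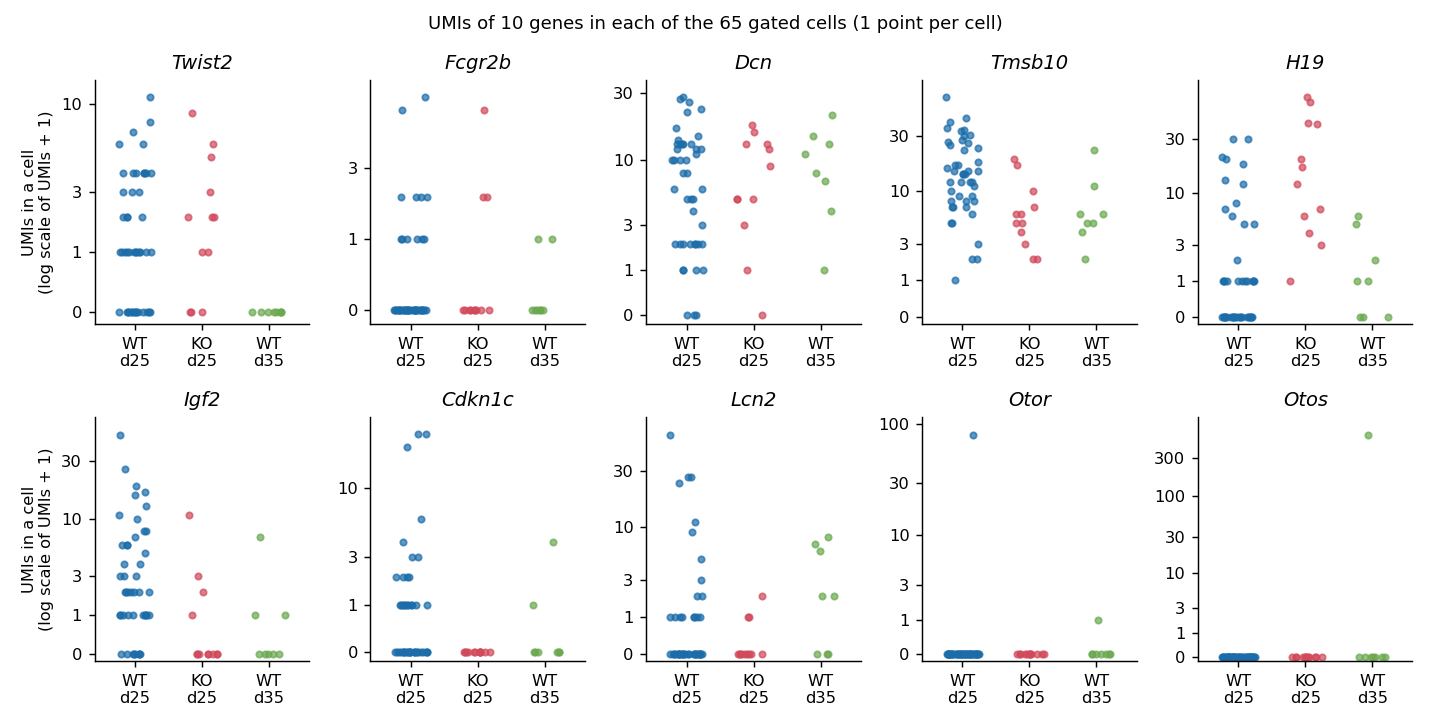
UMIs per cell (log scale of UMIs + 1) of 10 genes in the 65 members, 1 point per cell, by library. Twist2 is absent from the 8 WT day 35 cells, H19 is present in all 12 KO day 25 cells, and Otor and Otos come from 1 or 2 cells.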

How the data were processed

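The values analysed were the authors' deposited UMI counts, whole numbers for each gene in each barcode, not normalized. Per the submitters' processing notes, the tools were bcl2fastq, Cell Ranger 2.1.0, R 3.5.1 and Seurat 2.3.1, and the builds mm10 and GRCm38. How strand and multi-mapping reads were handled is not given in the sources used here. Of 27998 gene identifiers, 27645 matched a GRCm38 annotation.

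Samples were assigned to genotype and day by title. The members, gene lists and tests were chosen with earlier results of these data known. Summed counts were tested with edgeR 4.0.16 (filterByExpr, TMM, quasi-likelihood, library block) in R 4.3.3. Libraries needed 5 cells in both kinds of cell. The 20 cells planned were not reached, and 5 was chosen after the data were seen. The ratios between libraries were also planned only for at least 20 members in both libraries. They were made all the same, with 12 members in KO day 25 and 8 in WT day 35. Alternatives used DESeq2 1.42.0. Shares and ratios were computed with scipy 1.17.1, and 1 UMI is 1 captured molecule. In simulated data edgeR recovered 17% of 2-fold and 90% of 4-fold changes against Crabp1-only cells (9474 genes). Against Coch-only cells it recovered 39% and 88% (1230 genes). The changed genes of the Crabp1-only simulation came only from the more abundant genes, so its rates do not cover weaker ones. Both simulations used a common spread for all genes. For the ratios, counts were simulated with counting error only, and a change counted as recovered when its interval left out 0. This gave 73% of 2-fold and 92% of 4-fold changes for KO over WT at day 25 (770 genes). For day 35 over day 25 in WT it gave 53% and 91% (657 genes). The 2-fold rule was not applied and no spread between cells was drawn, so these rates are not those of the calls.

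Doublets were scored with scanpy 1.11.5. Its threshold called 0, 295, 0 and 3 barcodes, under 0.5% in 3 libraries, so no cell was removed. The 794, 1023, 684 and 401 highest scores were left out as an alternative, and held 3, 2, 3 and 0 members. Named genes were the first 10 each way by fold in each fit, among those with an adjusted p under 0.05, at least 50 CPM in the higher arm and 1 direction in every library. For each ratio they were the first 5 each way by the interval bound nearest 0. Further genes came from the lists and markers. Some results are not reported here.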

Additional observations from a re-analysis of the deposited data

How the results depend on the processing

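Each choice was changed alone, except where WT day 35 also dropped out as named, and settings without the highest cells, without cells of another marker set, or against matrix-rich Crabp1-only cells were chosen after the data were seen. The share in WT day 25 was 1.19% with 1 UMI of each gene, 0.287% with 3 and 0.184% thinned. KO day 25 gave 0.393% with 1 UMI and 0.0357% thinned, and WT day 35 gave 0.257% and, with 3 UMIs, 0.0367%. The upper bound of KO over WT at day 35 was 2.94 with 3 UMIs, 1.30 without the highest doublet scores, 1.01 with at least 1000 genes and at most 5% mitochondrial UMIs, 1.68 thinned and 1.84 without cells of another set, and that of day 35 over day 25 in KO was 2.52 thinned. For KO over WT at day 25 the higher and lower genes were 39 and 100 with 1 UMI, 7 and 66 with TMM, 46 and 82 with at least 20 UMIs, 130 and 82 with no minimum, and 3 and 19 without the highest cells. For day 35 over day 25 in WT they were 111 and 157 with 1 UMI, 39 and 44 without the highest doublet scores, 23 and 170 with TMM, 131 higher with at least 20 UMIs, 297 higher with no minimum, 18 higher without the highest cells, and 110 lower by the mean of each cell's CPM. Against Crabp1-only cells the higher genes were 21 without the highest cells, and higher and lower were 7 and 0 with no library block (edgeR, 613 genes at an unadjusted p under 0.05, and 15 lower by DESeq2), 18 and 15 by DESeq2, 79 and 115 with 1 UMI, 67 and 82 with the stricter cell filter, and 64 and 96 without cells of another set. With 3 UMIs 112 were lower. These last 3 fits also lost WT day 35, left with under 5 members, and its loss alone gave 69 and 83, so their moves cannot be put down to the setting. Without the highest doublet scores 23 were lower. Leaving out 1 library gave 6 to 69 higher and 4 to 83 lower. Against Coch-only cells they were 80 and 120 with no filter on low counts, 4 and 10 with no library block, 17 and 26 by DESeq2, 52 higher with 1 UMI, 16 higher with the stricter cell filter and 53 higher without cells of another set (both also without WT day 35, whose loss alone gave 125), and, leaving out 1 library, 9 to 125 higher and 23 to 94 lower. Reversed values were Igfbp2 at 0.92 for KO over WT at day 25 with 1 UMI, Myog at -1.65 without doublet scores and -1.90 without the highest cells, Dnajb1 at -0.85 and -0.12 and Mgst3 at -0.14 and -0.95 under those 2 settings for day 35 over day 25, and Otor there at 1.37 without the highest cells. Against Crabp1-only cells Hp stood at -0.11 without WT day 25 (up to 2.61 with another library left out), Lgals7 at 1.27 with 1 UMI, and Otor at -8.56 without the highest cells, -8.60 with 3 UMIs and -9.05 without cells of another set. The cause of these moves was not tested, except that fewer cells or genes enter by construction. Of the values of single genes and the medians of gene lists, 1319 stayed the same. For genes this means the same side of the threshold, and for medians a place within the interval of the main setting. Calls of single genes were lost in 210 values and gained in 23, 13 values reversed, and 7 medians moved. Not run, for too few cells, were the 3-UMI setting for day 35 over day 25 and for Coch-only cells, and the stricter filter and the setting without cells of another set for day 35 over day 25 in WT. No paired analysis was possible because each group has 1 library.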

Other observations

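Prok2, which encodes the secreted peptide prokineticin 2, was also higher in the members than in Crabp1-only cells, by 3.04 on the log2 scale (edgeR adjusted p = 4.09e-08). It stood at 104 and 38.8 CPM against 5.15 and 4.09 CPM at day 25 (WT, then KO), and at 28.9 against 34.2 CPM in WT day 35. The call was lost without WT day 25, at 0.84. Mmp11, a protease of stromal cells, rose by 1.46 and stood at 130, 181 and 174 CPM against 50.6, 45.1 and 50.4 CPM in the 3 libraries. Against Coch-only cells, Cdkn1a, an inhibitor of the cell cycle, rose by 1.72 and stood at 547, 388 and 868 CPM against 150, 263 and 127 CPM. Of 17 tested hypoxia and glycolysis genes 3 rose, the prolyl hydroxylase genes P4ha1 (1.36), P4ha2 (1.94) and Egln3 (1.29), and none fell, where 2.6% of all genes rose. Under DESeq2 none of the 3 was called (adjusted p = 0.329, 0.0796 and 0.422). Ifitm2, a relative of Ifitm1, rose by 1.03.

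Coch was set beside 11 other genes within the members, as a description since Coch chose the cells. The median of Coch was 19.2 UMIs per 10000 in the 12 WT day 25 members with Fcgr2b and 5.89 in the 33 without, and 20.2 and 8.64 in the 3 and 9 members of KO day 25. In WT day 35 it was 3.05 in 2 members and 13.2 in 6. In WT day 25, Coch was also higher in members with Prok2 (20.8 against 6.32), Epas1 (13.7 against 6.10) and Hp (13.1 against 6.32). Smaller gaps the same way were seen for Ifitm1 (9.70 against 5.53), Cyp26b1 (9.99 against 7.99) and Fst (9.18 against 7.15). Coch was lower in members with Lcn2 (6.10 against 9.18), H19 (5.94 against 10.2), Twist2 (6.31 against 8.72) and Ndnf (7.30 against 8.74). The WT day 25 members with Fcgr2b were shallower, at a median of 3956 against 5558 UMIs, and the part of depth was not tested.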
